A study of Mus musculus with 12 samples.

Results

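Zfp genes encode zinc finger proteins, the largest family of DNA-binding proteins in mammals, and 255 of them were expressed in epiblast-like cells (EpiLCs) of the mouse. They were chosen by their level alone: every gene whose symbol is Zfp and a number, without Zfp42, with a mean of at least 50 normalized counts over control and mutant in the female table and again in the male table. The tables list 22911 genes, of which 332 have such a symbol. Of these 332, 60 were below the limit in both sexes, 10 passed it in males but not in females, and 7 in females but not in males. The ratio of mutant to control did not enter the choice, but the family was singled out with earlier results of these data known, so counts over it are a description. Of the 255, 16 had a mean under 50 in at least 1 of the 4 groups and passed in that sex only through the group where they were higher, so that a called change of theirs is in part set by the choice. Those described by name are Zfp61, Zfp213, Zfp296, Zfp362, Zfp575, Zfp583, Zfp775 and Zfp819. The closest above the limit were Zfp819 (means of 66.8 in females and 50.9 in males), Zfp287 (64.9 and 51.2) and Zfp583 (52.3 and 51.8), and the closest below were Zfp947 (49.4 and 55.9), Zfp560 (49.4 and 64.1) and Zfp709 (56.4 and 49.2).

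A typical Zfp protein carries a row of C2H2 zinc fingers, each a short loop in which a pair of cysteines and a pair of histidines hold a zinc ion, and each finger reads a few bases of DNA. Many also carry a KRAB box, which binds the corepressor TRIM28 (KAP1). TRIM28 brings in the H3K9 methyltransferase SETDB1, HP1 proteins and the NuRD complex, and this machinery is known in the early embryo for silencing retroelements and for keeping the methylation of imprinted genes. KRAB genes are known to arise by tandem duplication, so near-identical copies sit side by side. Others in the family have no KRAB box and serve as activators, as parts of chromatin complexes or as RNA-binding proteins.

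The EpiLCs came from embryonic stem cells (ESCs) held in FGF2 (10 ng/ml) and Activin A (20 ng/ml) for 48 h, and RNA depleted of ribosomal RNA was sequenced for 12 samples, 3 in each of 4 groups, each from an independent ESC line. The groups were female Kdm5c fl/fl and Kdm5c Δ/Δ, and male Kdm5c flY and Kdm5c ΔY, which the labels call Smcx wild type and Smcx knockout after the older name of Kdm5c, an X-linked H3K4 demethylase. The floxed and the deleted allele are the only ones named, the Δ allele lacks exons 11 and 12, and the floxed strain was made on a mixed background although the labels give C57BL/6J. The tables hold group means of normalized counts (reads divided by the size factor of their library), from which the whole reads of each library were worked out. Within a group the letters A, B and C order the libraries from the highest to the lowest size factor, since nothing links a library to its ESC line. Recovered reads numbered 5516216 to 11092731 in a library, and fold changes were tested with limma on log2(normalized count + 1), so that the change of genes with few reads is understated.

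Kdm5c had normalized counts of 2336, 2429 and 2315 in the Kdm5c fl/fl libraries against 1406, 1447 and 1505 in Kdm5c Δ/Δ, and of 2195, 2110 and 2371 in Kdm5c flY against 1897, 1943 and 1976 in Kdm5c ΔY. The log2 fold change was −0.70 in females (adjusted p = 4.7e-09 in limma) and −0.20 in males (adjusted p = 0.274), and the difference between the sexes was 0.50 (adjusted p = 0.00347). These counts cover the whole gene, so they check the deletion only in part. Of 7 epiblast markers 7 were detected in each group. Libraries of 1 group differed beyond counting noise in every pair (chi-square over genes divided by its degrees of freedom, 1.97 to 4.41 in females). In males, library B of Kdm5c flY and library A of Kdm5c ΔY stood apart, with 16.7 to 29.4 against their own group, while the other pairs gave 2.31 and 2.61. The median SD of a Zfp gene was, on the log2 scale, 0.097 in female controls and 0.11 in female mutants, against 0.18 in male controls and 0.21 in male mutants, so male changes were measured with less precision.

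On mm9, the genome build of the authors, 251 of the 255 genes could be placed with GENCODE annotation, and Zfp65, Zfp131, Zfp383 and Zfp433 could not. A KRAB box was found in 139 of the placed proteins and not in 112. C2H2 fingers were found in 244, with a median of 10 per protein and at most 36. The median was 12 in KRAB proteins and 7 in the others. The 7 without the C2H2 pattern were Zfp36, Zfp185, Zfp330, Zfp365, Zfp707, Zfp781 and Zfp850. Zfp36 has fingers of the CCCH kind, which bind RNA, and Zfp185 has a LIM domain and binds the actin cytoskeleton. Chromosome 7 held 59 members and chromosome 17 held 35, and 104 members lay in 15 groups of at least 4 neighbours whose starts were at most 500 kb apart.

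The members that rose most in females include close copies, which is shown by 1 finger each of Zfp600 (chr4:146124225-146166156, + strand) and Zfp534 (chr4:147047611-147076662, − strand). The coding sequences of finger 16 of Zfp600 (residues 673 to 693) and finger 7 of Zfp534 (residues 410 to 430) are printed 5′ to 3′ from GENCODE transcripts, with the codons of the zinc-binding cysteines and histidines in capitals.
Zfp600: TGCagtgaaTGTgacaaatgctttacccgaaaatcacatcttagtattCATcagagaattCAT
Zfp534: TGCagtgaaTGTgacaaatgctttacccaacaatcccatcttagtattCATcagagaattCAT
They differ at 3 of 63 bases. Over the 17 fingers of this length in Zfp600, the nearest finger of Zfp534 differed at a median of 7 bases and at most 9, while over 219 other members the same median distance had a median of 26 and was 9 at the lowest. The authors kept uniquely mapped reads. Of the exonic positions of Zfp600, 10.6% start a 50-base read that occurs once in mm9, and of those of Zfp534, 26.7%. These shares count exact matches within exons, without reads across splice junctions, while the authors allowed up to 1 mismatch. The levels of such genes rest on few positions and are uncertain.

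Promoters of the 3 largest rises and the 3 largest falls among members in females are shown because CG content differed between KRAB genes and the rest of the family. Zfp575 and Zfp775 are among the members that passed the limit only through their higher group. Each runs from 250 bases before to 50 after the start of the transcript with the longest coding sequence on mm9, 5′ to 3′ on the strand of the gene, with CG dinucleotides in capitals. The first 3 belong to genes that rose, and the window of Zfp600 lies inside the gene, after an earlier annotated start.
Zfp575 (chr7:25372611-25372910, − strand): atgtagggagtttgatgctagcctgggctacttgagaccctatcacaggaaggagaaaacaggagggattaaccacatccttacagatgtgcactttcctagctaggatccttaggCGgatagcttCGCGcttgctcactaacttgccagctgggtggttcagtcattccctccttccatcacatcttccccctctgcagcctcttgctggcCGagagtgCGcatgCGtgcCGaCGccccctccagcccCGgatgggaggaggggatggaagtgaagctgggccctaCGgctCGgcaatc
Zfp600 (chr4:146124841-146125140, + strand): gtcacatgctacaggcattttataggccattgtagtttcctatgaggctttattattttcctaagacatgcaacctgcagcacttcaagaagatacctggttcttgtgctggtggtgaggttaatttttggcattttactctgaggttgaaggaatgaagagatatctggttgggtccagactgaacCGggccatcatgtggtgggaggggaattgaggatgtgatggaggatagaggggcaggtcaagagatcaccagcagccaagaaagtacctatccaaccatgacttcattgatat
Zfp951 (chr5:105246322-105246621, − strand): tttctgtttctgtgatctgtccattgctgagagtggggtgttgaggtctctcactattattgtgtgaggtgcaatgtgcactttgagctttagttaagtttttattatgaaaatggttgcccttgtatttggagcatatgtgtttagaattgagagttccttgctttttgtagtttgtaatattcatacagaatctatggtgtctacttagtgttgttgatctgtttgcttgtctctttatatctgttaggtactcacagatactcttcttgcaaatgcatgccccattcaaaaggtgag
The other 3 belong to genes that fell.
Zfp185 (chrX:70232428-70232727, + strand): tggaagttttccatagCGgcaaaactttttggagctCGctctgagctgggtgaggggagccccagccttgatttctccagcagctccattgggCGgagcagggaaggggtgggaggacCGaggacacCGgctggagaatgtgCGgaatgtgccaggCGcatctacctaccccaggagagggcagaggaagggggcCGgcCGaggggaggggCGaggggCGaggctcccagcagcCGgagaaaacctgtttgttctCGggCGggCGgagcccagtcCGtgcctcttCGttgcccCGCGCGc
Zfp358 (chr8:3492888-3493187, + strand): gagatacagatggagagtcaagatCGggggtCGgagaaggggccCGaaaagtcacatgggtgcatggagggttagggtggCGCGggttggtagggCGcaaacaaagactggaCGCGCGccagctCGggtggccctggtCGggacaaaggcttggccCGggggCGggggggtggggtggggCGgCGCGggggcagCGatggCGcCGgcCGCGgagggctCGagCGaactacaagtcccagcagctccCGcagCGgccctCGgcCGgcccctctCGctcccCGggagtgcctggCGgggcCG
Zfp775 (chr6:48562929-48563228, + strand): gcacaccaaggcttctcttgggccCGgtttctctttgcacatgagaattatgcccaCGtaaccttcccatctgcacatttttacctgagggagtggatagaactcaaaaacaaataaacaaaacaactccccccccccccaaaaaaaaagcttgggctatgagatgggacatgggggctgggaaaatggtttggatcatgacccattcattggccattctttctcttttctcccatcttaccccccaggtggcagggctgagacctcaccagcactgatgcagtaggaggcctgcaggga
They hold 11, 1 and 0 CG in Zfp575, Zfp600 and Zfp951, and 20, 31 and 2 in Zfp185, Zfp358 and Zfp775. The median was 14 over 20354 protein-coding promoters of the tables and 22 over the 10578 of genes with a mean of at least 50. Among Zfp members it was 10 with a KRAB box and 20 without. Members that rose in females had a median of 13 and those that fell 20.5, with Zfp775 as an exception in the printed set. The site of Zfp143, itself a member, was searched as ACTACA, any 2 bases and TCCCA on both strands. It occurred in 25 of 251 member promoters (9.96%), among them that of Zfp358, against 453 of the 20354 (2.23%) and 392 of the 10578 (3.71%). It was in 19 of 139 KRAB promoters and 6 of 112 others. A match is a string of letters and not a measured binding site.

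Per kilobase of exon, the median level of the members over the 12 libraries was 50.7 normalized counts per kb, against 101 per kb for 10758 genes with a mean of at least 50. KRAB members had a median of 44.8 per kb and the others 67.0 per kb. Zfp935, a KRAB gene, was highest at 4654 per kb, followed by Zfp488 at 902, Zfp607 at 515 and Zfp106 at 515. The 3 highest by plain count were Zfp935 (5767 over all libraries), Zfp106 (5684) and Zfp488 (3878).

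Females differed by genotype at 166 of the 255 members. Of these, 113 (44.3%) rose in Kdm5c Δ/Δ and 53 (20.8%) fell, at an adjusted p under 0.05 in limma. Over all 19583 genes tested, 25.4% rose and 24.6% fell, and of the 10914 genes that met the same limit 35.3% rose and 32.1% fell. The median log2 fold change of the members was 0.16, against 0.023 for those 10914 genes. Without the limit on the level, 126 of 331 Zfp genes rose and 64 fell. Of the called members 27 changed by more than 1 on the log2 scale, 18 up and 9 down. Among them Zfp296, Zfp362, Zfp575, Zfp775 and Zfp819 passed the limit in females only through their higher group. For the 10914 genes, percentile 95 of the log2 fold change was 1.04 and percentile 6 was −1.01. Of the 239 members with a mean of at least 50 in each of the 4 groups, 103 rose and 50 fell. Control and mutant libraries were fully separate in 177 members, for each of which the exact permutation test gave a two-sided p of 0.1, the smallest that 3 libraries against 3 allow. The same count is not given over all genes. Limma called 65.1% of the members and 67.4% of the 10914 genes, so such a count is no trait of the family. RNA of bulk samples cannot tell a change in RNA per cell from a change in the number of cells of a type.

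KRAB genes made up most of the members that rose. Of 139 KRAB members, 71 rose and 17 fell (median log2 fold change 0.25), while of 112 members without the box 39 rose and 35 fell (median 0.0068). Outside the family, 8 of 33 Zbtb genes of the same level rose and 5 fell (median 0.064), and of 15 Zscan and Zkscan genes 6 rose and 3 fell (median 0.041). Of the 10914 genes at the same level 35.3% rose and 32.1% fell, near the 34.8% and 31.25% of members without the box. Among KRAB members the shares were 51.1% and 12.2%. These counts describe the lists and were not tested against each other.

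**Figure D1:**
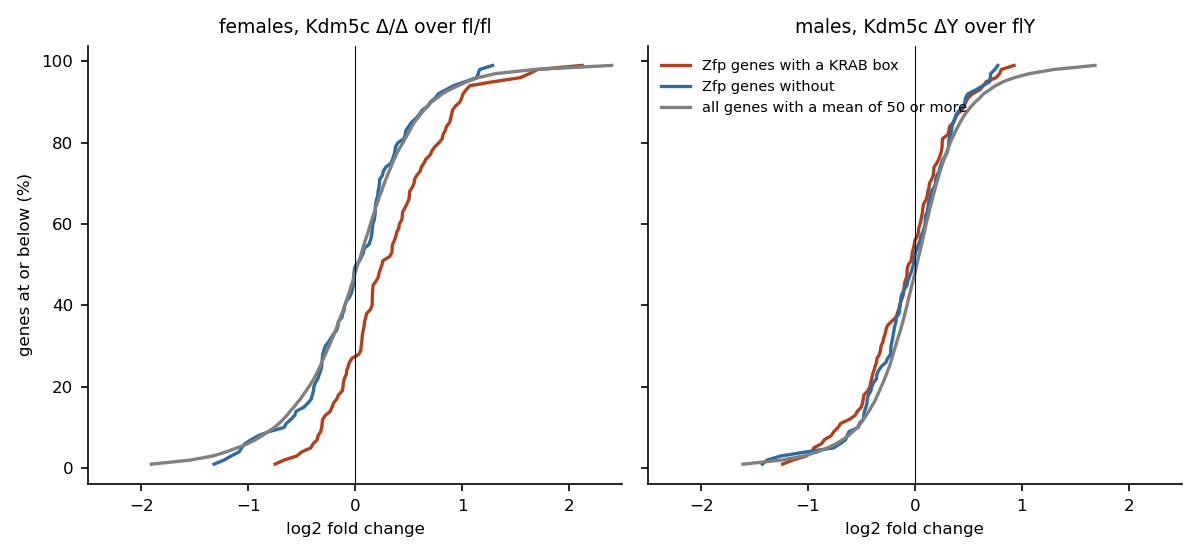
Cumulative share of genes (percent, y axis) at or below each log2 fold change of mutant over control (x axis), for females on the left and males on the right, drawn from the 1st to the 99th percentile. The curve of KRAB members lies to the right in females (median 0.25) and close to the others in males (median −0.06).

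The share of unique positions moved with the size of the change. Of 20 members with under 70% unique positions, 16 rose and 0 fell in limma (median log2 fold change 0.77), and at an unadjusted p under 0.05 the counts were 16 and 1. Of 27 with 70 to 95%, 14 rose and 4 fell, and of 204 with at least 95%, 80 rose and 48 fell (median 0.14). Among the 101 KRAB members with at least 95% the counts were 46 and 14 (median 0.18). Among the 103 members without the box at that share, they were 34 and 34 (median −0.01). Of the 10914 genes at the same level 35.3% rose and 32.1% fell. Over 251 members Spearman's rho between unique share and female log2 fold change was −0.31, across genes that are not independent. Its part in the result was not tested.

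**Figure D2:**
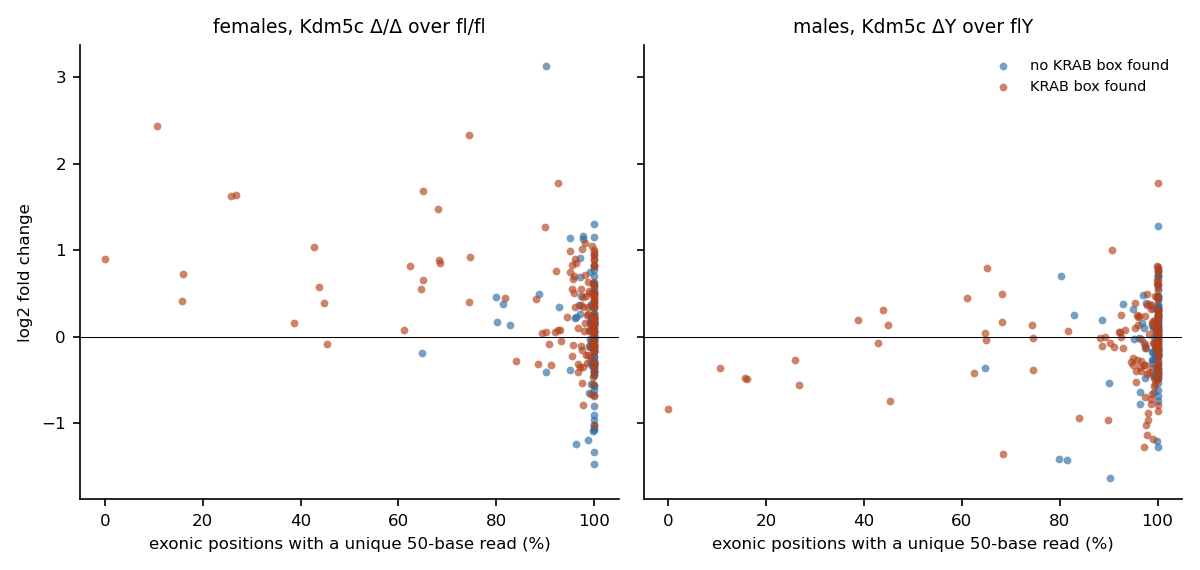
Each point is 1 of 251 placed members, with the share of its exonic positions that start a unique 50-base read (percent, x axis) and its log2 fold change of mutant over control (y axis), for females on the left and males on the right. In females 18 of the 20 members under 70% lie above 0, and in males 8 of the 20 do.

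The largest rise was that of Zfp575 (chr7:25368857-25372660, − strand), with normalized counts of 41.2, 41.7 and 46.7 in the Kdm5c fl/fl libraries and 378, 396 and 381 in Kdm5c Δ/Δ. Every mutant library was far above every control, with a log2 fold change of 3.13 (standard error 0.11, adjusted p = 1.04e-13), or 8.74-fold. Its mean in Kdm5c fl/fl was 43.2, under the limit of 50, so it passed in females only through the mutants. Its exons share 99 bases with an antisense gene. Zfp600, listed with the retroelement repressors, had 377, 394 and 405 in controls and 2041, 2193 and 2164 in mutants. The groups did not overlap, with a log2 fold change of 2.44 (standard error 0.06, adjusted p = 6.91e-16). Zfp534, its near copy, had 522, 501 and 476 against 1415, 1626 and 1619.9, a log2 fold change of 1.63 (standard error 0.07, adjusted p = 9.23e-13). Zfp951 had 94.6, 68.1 and 51.1 against 317, 382 and 363. The controls of Zfp951 spread more than those of the other 3, and it changed by 2.34 (standard error 0.16, adjusted p = 9.66e-10). The next by size were Zfp459 at 1.78, Zfp936 at 1.69, Zfp617 at 1.62 and Zfp345 at 1.48, all KRAB genes, with adjusted p from 1.6e-12 to 2.5e-09.

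Of the 9 members that fell by more than 1 on the log2 scale in females, 8 had no KRAB box, and the KRAB gene Zfp382 was at −1.02. Zfp185, on the X chromosome (chrX:70232678-70276882, + strand), had normalized counts of 342, 373 and 399 in controls and 125, 132 and 143 in mutants, a log2 fold change of −1.47 (standard error 0.09, adjusted p = 2.77e-10). All mutant libraries were below all controls. Zfp358 had 137, 138 and 135 against 62.7, 48.8 and 50.5, and −1.33 (standard error 0.14, adjusted p = 2.75e-07) as its log2 fold change. Zfp775 had 128, 114 and 72.3 against 39.97, 44.6 and 43.5, a log2 fold change of −1.24 (standard error 0.19, adjusted p = 2.78e-05), with control C well below controls A and B. Its mutant mean of 42.7 was under the limit, as was that of Zfp362 at 40.2, so both passed in females only through the controls. Zfp395 (−1.19), Zfp444 (−1.09), Zfp341 (−1.08), Zfp629 (−1.05) and Zfp362 (−1.02) followed, with adjusted p from 2.3e-09 to 0.00011. The other 4 X-linked members, Zfp182, Zfp275, Zfp300 and Zfp449, were not called, with log2 fold changes of 0.18, −0.10, −0.35 and 0.23.

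**Figure D3:**
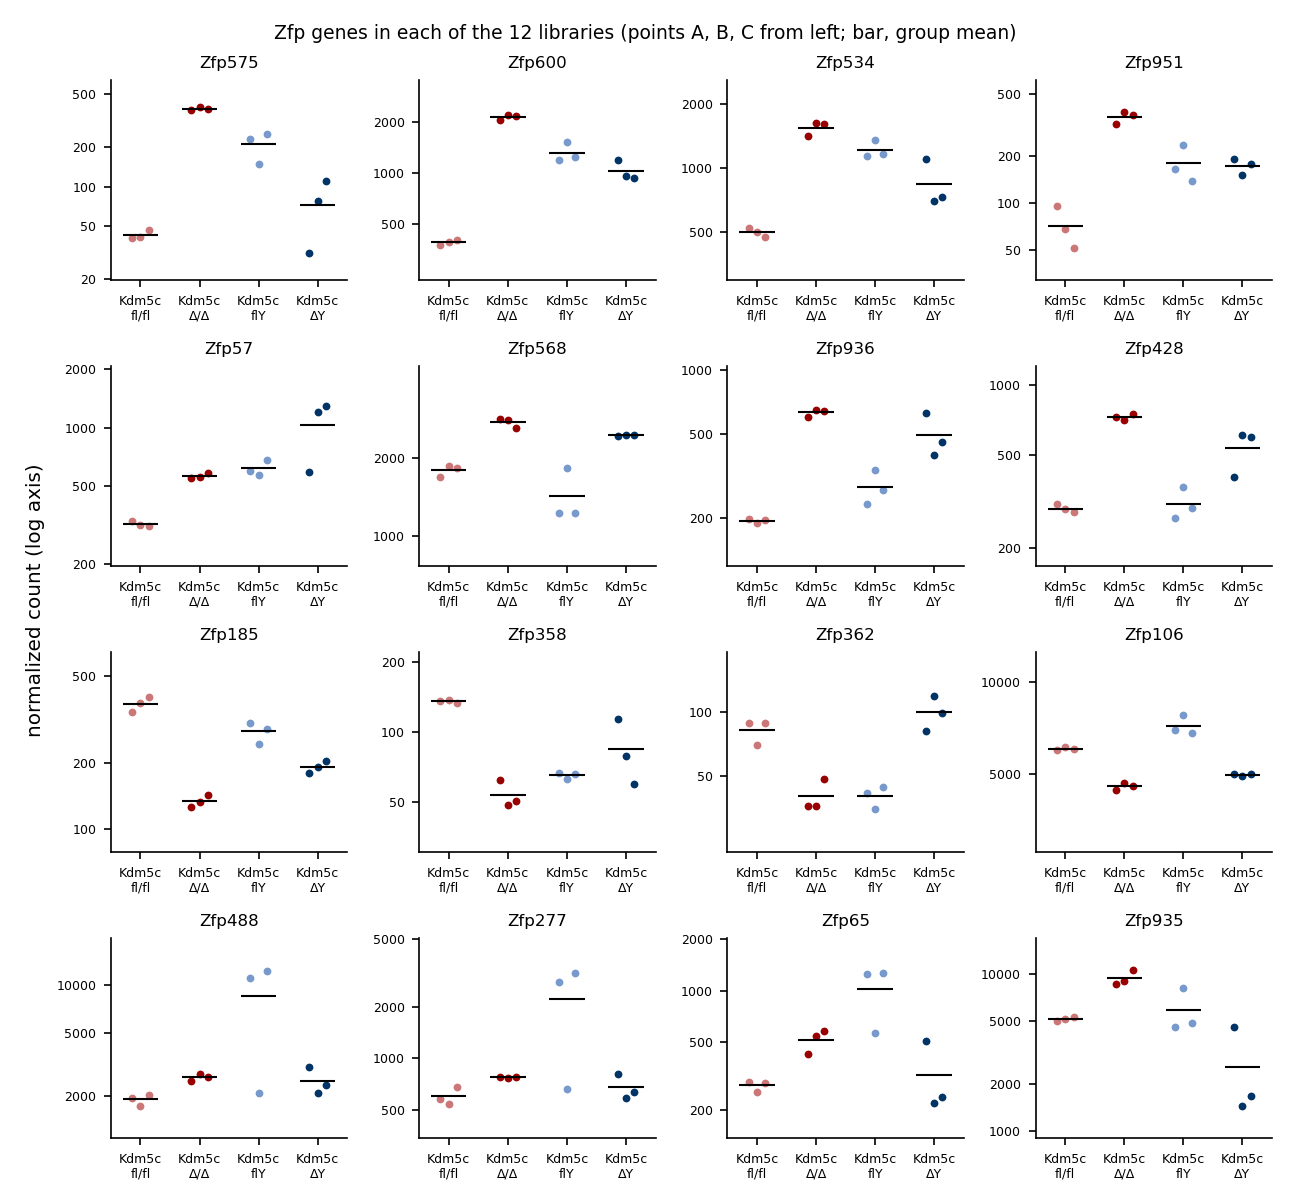
Normalized counts (y axis, logarithmic) of 16 Zfp genes in each library, 3 points per group with a bar at the group mean, for the 4 groups on the x axis. Zfp575 rises from 41.2 to 46.7 in Kdm5c fl/fl to 378 to 396 in Kdm5c Δ/Δ but falls in males, and Zfp488, Zfp277 and Zfp65 show library B of Kdm5c flY apart from A and C.

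Of the listed repressors of imprinted genes and retroelements, 8 were members and 8 rose in females (median log2 fold change 0.91), but Zfp819 passed the limit only through the mutants (control mean 43.5), which leaves 7 of 7. Among genes at the same level 35.3% rose, and among the KRAB members 71 of 139. The list was short and was not tested against these. Zfp708 was below the limit, and Zfp274 and Zfp992 were not used here. Zfp57, which protects the methylation of imprinting control regions, had 334, 316 and 312 in controls and 551, 559 and 586 in mutants, a log2 fold change of 0.82 (standard error 0.07, adjusted p = 1.3e-08). Zfp445, which shares that role, changed by 0.16 (standard error 0.05, adjusted p = 0.0165), the smallest of the 8. Zfp568, a repressor of the placental transcript of Igf2, rose from 1690.0, 1859 and 1837 to 2842, 2809 and 2615, by 0.62 (standard error 0.06, adjusted p = 5.86e-08). Zfp809, which silences endogenous retroviruses primed by proline tRNA, rose by 0.51 (adjusted p = 4.75e-05), Zfp819 by 1.05 (adjusted p = 8.94e-05), Zfp932 by 1.03 (adjusted p = 2.21e-08) and Zfp961 by 1.01 (adjusted p = 1.34e-09). Zfp961 shares 181 exonic bases with an antisense gene, and 42.8% of the positions of Zfp932 were unique. The unique share of Zfp600, given above, was lower still. In males 1 of the 8, Zfp568, was called, and the change was lower in males than in females at 5 of the 8.

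The corepressors that KRAB proteins work through were measured in the same libraries. In females Trim28 had normalized counts of 4150.0 ± 120.3 (SD, n = 3) in controls and 5074 ± 139.7 in mutants, a log2 fold change of 0.29 (adjusted p = 0.000138). Setdb1 rose by 0.54 (adjusted p = 2.23e-06), while its partner Atf7ip changed by −0.08 (adjusted p = 0.329). Of 2 HP1 genes tested, Cbx3 rose by 0.19 (adjusted p = 0.0186) and Cbx1 was not called, and Cbx5 exceeded the level at which reads could be recovered. Of 11 NuRD genes 3 rose (Hdac1 0.32, Mbd3 0.29, Gatad2b 0.38) and 4 fell (Chd3 −1.18, Mta1 −0.87, Hdac2 −0.46, Rbbp7 −0.29). Of 8 other partners 4 rose, namely the remodeller Smarcad1 (0.92), the histone H3.3 chaperone genes Daxx (0.54) and Atrx (0.24), and Sumo2 (0.25). Such calls were common in females, where 35.3% of the 10914 genes at the level of the members rose and 32.1% fell. The NuRD shares were 27.3% and 36.4%. These lists were short and were not tested against that background. In males limma called 0 of these 24 genes, and 3 were higher and 0 lower at an unadjusted p under 0.05. Calls were rare there, with 6.93% of the 10931 genes at that level higher and 4.76% lower. Little can therefore be read from 0 of 24.

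Of 8 members listed with the epiblast and pluripotency network, 4 rose and 2 fell in females, against 35.3% and 32.1% of genes at the same level. Zfp296 rose most, from 51.3, 52.7 and 44.5 to 121, 105 and 108, by 1.16 (standard error 0.15, adjusted p = 2.77e-06), but with a control mean of 49.5 it passed the limit only through the mutants. Zfp281, which drives the passage from naive to primed pluripotency, rose by 0.26 (adjusted p = 0.000622), Zfp462, a heterochromatin factor of ESCs, by 0.19 (adjusted p = 0.00718), and Zfp110 by 0.84 (adjusted p = 4.79e-09). Zfp217 fell by 0.62 (adjusted p = 2e-07) and Zfp219 fell by 0.44 (adjusted p = 1.46e-05). Zfp143, an activator at many promoters, changed by −0.17 (adjusted p = 0.0867) and Zfp706 by 0.14 (adjusted p = 0.0813). In the same cells the sum of 6 endoderm markers ran from 429 to 479 normalized counts in controls and from 3523 to 3688 in mutants, with 6 of 6 higher and none at 0. Of 7 naive markers 5 rose and Nanog fell (sums of 3379 to 3551 and of 3898 to 4055). Of 7 epiblast markers 4 rose and 2 fell (sums of 11800 to 11996 and of 16258 to 16572). Of 7 fibroblast markers 3 fell (sums of 2253 to 2302 and of 749 to 813). These marker lists moved with genotype as the members did, and their part in the result was not tested.

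Among 10 members of chromatin complexes 4 rose and 2 fell in females, where 35.3% and 32.1% of genes at the same level did. Zfp532, part of a module with Zmynd8, rose from 652, 710.4 and 716 to 1568, 1483 and 1524, by 1.14 (standard error 0.06, adjusted p = 2.34e-11). Of its partners in that module, Zfp687 fell by 0.31 (adjusted p = 0.00176) and Zfp592 changed by 0.21 (adjusted p = 0.117). Zfp410, known as the activator of Chd4, rose by 0.70 (adjusted p = 5.39e-07), while Chd4 itself changed by 0.07 (adjusted p = 0.301). Zfp644, a partner of the H3K9 methyltransferases G9a and GLP, rose by 0.38 (adjusted p = 4.26e-05), Zfp827 rose by 0.36 (adjusted p = 0.00364) and Zfp516 fell by 0.35 (adjusted p = 0.000168). Zfp318 (−0.0047), Zfp335 (−0.02) and Zfp609 (−0.02) were not called.

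Of 9 members that handle RNA or protein, 5 rose and 3 fell, beside the 35.3% and 32.1% of genes at the same level. Zfp622, a ribosome assembly factor, rose by 0.77 (adjusted p = 2.79e-08), and Zfp326 by 0.41 (adjusted p = 0.000188), Zfp91 by 0.26 (adjusted p = 0.00546), Zfp207, a spindle factor, by 0.19 (adjusted p = 0.0146) and Zfp830 by 0.21 (adjusted p = 0.0388). Zfp106, an RNA-binding protein, fell from 5972, 6117 and 6019 to 4444, 4655 and 4559.6, a log2 fold change of −0.41 (standard error 0.05, adjusted p = 2.34e-06), and 3326 of its exonic bases overlap an antisense gene. Zfp36, which destabilises mRNAs with AU-rich elements, fell by 0.26 (adjusted p = 0.0197), and Zfp598, the ubiquitin ligase that senses stalled ribosomes, fell by 0.16 (adjusted p = 0.0279). Zfp346 changed by −0.01 (adjusted p = 0.914). Among 4 developmental members Zfp148 rose by 0.35 (adjusted p = 0.000213) and Zfp292 fell by 0.23 (adjusted p = 0.00259), while Zfp423 changed by −0.10 (adjusted p = 0.311).

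Neighbouring members moved unevenly, and the groups described here were picked after their values were seen. Among genes at the same level 35.3% rose and 32.1% fell in females. Zfp819 and Zfp575 passed the limit in females only through the mutants, and Zfp775 only through the controls, so their calls are in part set by the choice. On chromosome 7 the 4 genes Zfp936, Zfp715, Zfp719 and Zfp819 (50442540 to 50873655 on mm9) rose together in females, with a median log2 fold change of 0.93 and a range of 0.62 to 1.69. In the 8 genes from Zfp180 to Zfp526 (24866943 to 26012526), which include Zfp575, 5 rose (median 0.63), and Zfp61 (−0.05), Zfp574 (0.06) and Zfp526 (0.19) were not called. Of 11 from Zfp84 to Zfp146 on the same chromosome 6 rose and 2 fell (median 0.49). Of the 17 from Zfp160 to Zfp13 on chromosome 17, all KRAB genes, 7 rose and 3 fell (median 0.16). In the 7 genes from Zfp282 to Zfp775 on chromosome 6 (median −0.18), Zfp746 (−0.47) and Zfp775 fell and the other 5 were not called. Male medians of the 15 groups ran from −0.34 to 0.22.

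**Figure D4:**
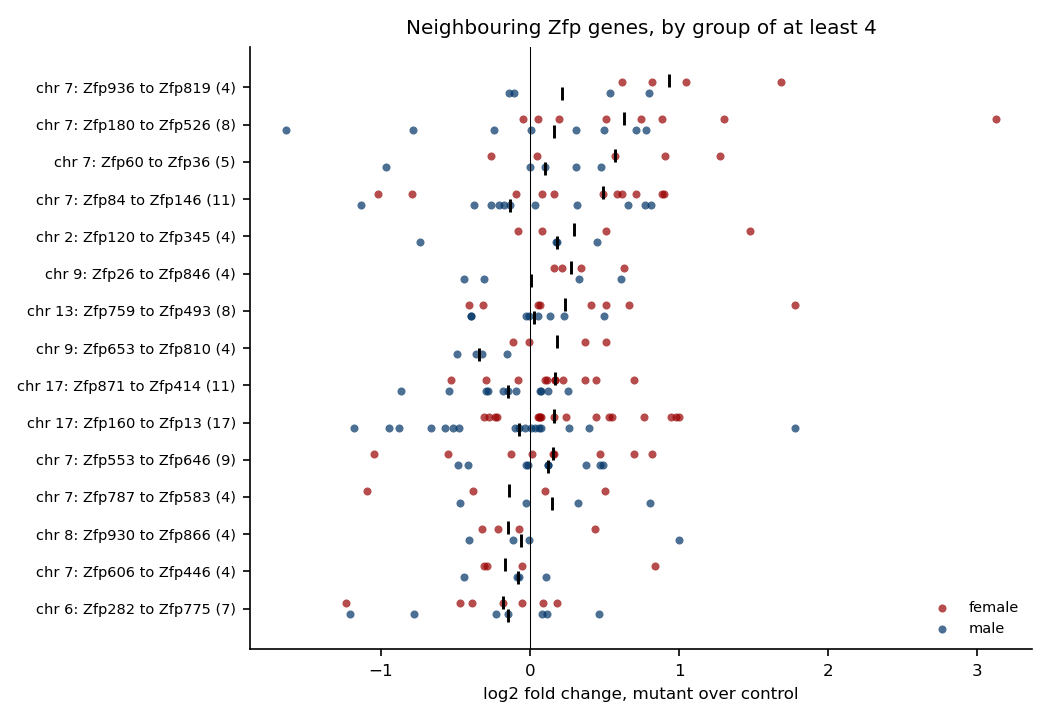
Log2 fold change of mutant over control (x axis) for members in 15 groups of at least 4 neighbours, sorted by female median (y axis, with the number of genes in parentheses). Upper points of a row are female, lower points male, and short bars are medians, which span −0.18 to 0.93 in females and −0.34 to 0.22 in males.

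Males differed by genotype at 18 members, of which 8 (3.14%) rose in Kdm5c ΔY and 10 (3.92%) fell, against 32 and 50 at an unadjusted p under 0.05. Over all 21900 genes tested, 4.19% rose and 3.58% fell, and of the 10931 genes at the same level 6.93% rose and 4.76% fell. The members' share of rises was below both, and their share of falls lay between them. The median log2 fold change of the members was −0.03, against 0.018 for those 10931 genes. Of the 139 KRAB members 6 rose and 3 fell, and of the 112 others 2 rose and 6 fell. The counts depended on single libraries: without library A or C of Kdm5c flY they were 1 and 0, without library B or C of Kdm5c ΔY 3 and 0 or 2 and 1, without library B of Kdm5c flY 21 and 26, and without library A of Kdm5c ΔY 21 and 48. Without both libraries that stood apart, 46 rose and 73 fell, 18 of the 18 calls among them. That setting was chosen after the data were seen. All genes then gave 17.7% higher and 25.3% lower.

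The 2 libraries stood apart in named members. Zfp488, a transcriptional repressor, had 11039, 2098 and 12230.2 normalized counts in Kdm5c flY libraries A, B and C and 3036, 2112 and 2342 in Kdm5c ΔY. Zfp277 had 2814, 663 and 3150.2 in Kdm5c flY. Zfp300, on the X chromosome, had 222, 63.1 and 267. Library B was more than 1 log2 below both others in 8 members and above both by as much in 0. Library A of Kdm5c ΔY was more than 1 log2 above B and C in 9 members, such as Zfp935 at 4598, 1444 and 1666, and below both in Zfp57 (592, 1198 and 1289) and Zfp575. The sum of endoderm markers was 532 in that library against 2338 and 2253 in B and C, and that of naive markers 5743 against 7929 and 7935. The epiblast sum was 21306 in library B of Kdm5c flY against 13949 and 13930 in A and C. The fibroblast sum was 560 to 824 in Kdm5c flY and 4167 to 4663 in Kdm5c ΔY, with 4 of 7 markers higher. Of the epiblast markers 4 of 7 fell in Kdm5c ΔY, among them Otx2 (−1.72) and Utf1 (−0.85). Of the naive markers 3 of 7 rose, among them Esrrb (2.03), with sums of 3627 to 4100 in controls and 5743 to 7935 in mutants, and 1 of 6 endoderm markers, Sox17, fell (−2.14). The part of these lists in the male result was not tested.

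In males Zfp213 rose most, from 29.9, 51.7 and 31.6 to 178, 118 and 100.3, by 1.78 (standard error 0.30, adjusted p = 0.00997). Its control mean of 37.7 was under the limit, as was that of Zfp362 at 40.5, so both passed in males only through the mutants. Zfp213 shares 1250 exonic bases with an antisense gene. Zfp362 rose by 1.28 (adjusted p = 0.0156), Zfp869 by 1.00 (adjusted p = 0.00704), Zfp568 by 0.81 (adjusted p = 0.0167), Zfp667 by 0.81 (adjusted p = 0.0423), Zfp936 by 0.80 (adjusted p = 0.0398), Zfp428 by 0.78 (adjusted p = 0.0374) and Zfp26 by 0.61 (adjusted p = 0.0306). Zfp65 fell most, from 1246, 567 and 1263 to 508, 218 and 239, a log2 fold change of −1.69 (standard error 0.37, adjusted p = 0.0255), with flY library B near the highest mutant library. Zfp575 fell from 227, 149 and 250.1 to 31.7, 78.05 and 109.6, a log2 fold change of −1.64 (standard error 0.41, adjusted p = 0.0398). Zfp365 (−1.28), Zfp467 (−1.21), Zfp945 (−1.18), Zfp940 (−1.13), Zfp9 (−1.02), Zfp219 (−0.62), Zfp106 (−0.53) and Zfp143 (−0.45) also fell, with adjusted p from 0.019 to 0.049. Of these 18 calls 17 were lost in at least 1 of the alternatives, and Zfp869 in none.

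Of the 166 members called in females and the 18 called in males 13 were the same, 7.83% of the female and 72.2% of the male calls. Both shares are near those of all 255 members, of which 7.06% were called in males and 65.1% in females. Directions matched in 8 of the 13. Zfp26, Zfp213, Zfp428, Zfp568 and Zfp936 rose in both sexes, and Zfp106, Zfp219 and Zfp940 fell in both. Zfp9, Zfp65, Zfp575 and Zfp945 rose in females and fell in males, and Zfp362 did the reverse, from 88.5, 70.3 and 88.9 to 36.05, 36.2 and 48.5 in females and from 41.9, 35.2 and 44.6 to 81.97, 119.6 and 99.3 in males. The sign was the same in 150 of 255 members (58.8%) and in 6239 of 10903 genes with a mean of at least 50. Spearman's rho between the female and male log2 fold changes of the 255 members was 0.18 and Pearson's r 0.061, across genes that are not independent.

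**Figure D5:**
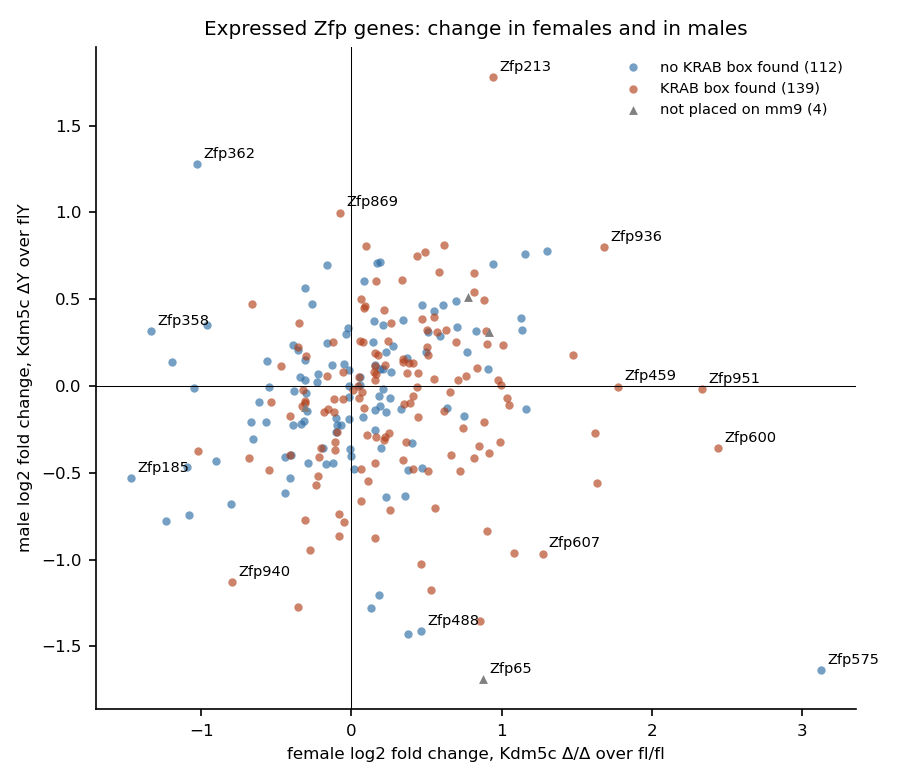
Female log2 fold change (x axis, Kdm5c Δ/Δ over fl/fl) against male log2 fold change (y axis, Kdm5c ΔY over flY) for 255 Zfp members, coloured by whether a KRAB box was found, with the 4 unplaced genes as triangles. Points spread widely around both axes (Spearman's rho 0.18), with Zfp575 at 3.13 and −1.64.

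The difference between the sexes was itself tested, as an interaction term fitted by limma to all 12 libraries. At 57 members (22.4%) the change was lower in males than in females and at 24 (9.41%) it was higher. Over all 22014 genes tested, 10.7% were lower and 10.6% higher, and of the 10903 at the same level 15.1% and 17.1%. Of 139 KRAB members 39 were lower and 7 higher (median difference −0.30), and of the 112 others 16 and 17 (median −0.07). Of the 81 called members 70 were also called in females and 10 in males, and 63 had opposite signs in the sexes. Among all 255 members 65.1% were called in females and 7.06% in males, and 150 had the same sign. The interaction picks members whose changes differ and uses the same libraries. Opposite signs and overlap with the calls of 1 sex are therefore favoured by the selection. Leaving out 1 library gave 57 to 116 called members, and without both male libraries that stood apart there were 134. Shares over all genes in these settings are not given. Of the epiblast, endoderm and fibroblast markers 6 of 7, 6 of 6 and 4 of 7 differed in the same test.

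Control cells of the sexes differed as well. In the same fit 41 members (16.1%) were lower in Kdm5c fl/fl than in Kdm5c flY and 24 (9.41%) higher, while over all 22014 genes 11.8% were lower and 9.7% higher, and of the 10903 at the same level 13.3% and 17.1%. Of the 139 KRAB members 25 were lower and 10 higher, and of the 20 members with under 70% unique positions 9 were lower and 2 higher. The Kdm5c fl/fl libraries enter this contrast, the female contrast and the interaction alike, so the 3 are not independent. Zfp600 had 377, 394 and 405 in Kdm5c fl/fl, 1188, 1519.7 and 1245 in Kdm5c flY and 1189.8, 965 and 931 in Kdm5c ΔY. Its level in Kdm5c fl/fl was below that of every other group, with a log2 difference from Kdm5c flY of −1.74 (standard error 0.11, adjusted p = 2.38e-07). Also lower in Kdm5c fl/fl, as log2 differences from Kdm5c flY, were Zfp459 at −1.36 (adjusted p = 3.82e-06), Zfp951 at −1.32 (adjusted p = 0.000897) and Zfp57 at −0.94 (adjusted p = 0.00624). The endoderm markers were lower in Kdm5c fl/fl at 6 of 6, with sums of 429 to 479 against 1746 to 2477 in Kdm5c flY. Of the fibroblast markers 3 of 7 were higher in Kdm5c fl/fl, with sums of 2253 to 2302 against 560 to 824 and Col1a1 at 2.52. Of the epiblast markers 4 of 7 were lower, with Sox2 at −2.20, and of the naive markers 2 of 7. The part of these lists was not tested. Without the 2 male libraries that stood apart 118 members differed, and with 1 library left out 37 to 90, of which 37 came without library B of Kdm5c fl/fl and 43 without library C of Kdm5c flY. The matching shares over all genes are not given. Among X-linked members Zfp185 was higher in Kdm5c fl/fl by 0.42 (adjusted p = 0.0198) and the other 4 were not called.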

How the data were processed

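The deposited tables, 1 per sex, hold signal values in which the authors divided reads by the size factor of each library and averaged 3 libraries per group. Their fold changes and p-values were not used, and there were 0 columns of other series. Per the labels and the methods of the study, libraries were strand-specific and single-end, with reads of 50 bases aligned to mm9 by TopHat2 2.1.0 with Bowtie2 2.2.6.0, at most 1 mismatch, and unique reads kept. The strand setting of the counting is not given in the sources used here. The whole reads of each library were recovered as the only solution that fits each mean, for means up to 10000, and hold 86.0% to 91.4% of the normalized reads. The solver was tested on simulated data. Libraries are named by size factor and are not tied to sample numbers. The tests planned for per-library values were run on these.

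Changes were tested with limma 3.58.1 (R 4.3.3) with a mean-variance trend on log2(normalized count + 1), with Benjamini-Hochberg adjustment over all genes tested and a threshold of 0.05. Each sex was fitted alone, and the interaction and the comparison of controls were fitted over 12 libraries. The p-values rest on the spread between the 3 recovered libraries of a group. By the methods of the study each came from an independent ESC line, but no library could be matched to its line. Alternatives were another pseudocount, voom on the recovered reads, a minimum mean, other size factors, other limits of the rule and each library left out. KRAB boxes were found with a profile in pyhmmer 0.12.3 (E-value under 0.001), and unique positions by counting every 50-base read of mm9 at steps of 5 bases.

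The genes named are those in the role lists, up to 8 per direction and sex by fold change, the 3 highest, the members called in both sexes or in the interaction, and 3 on either side of the limit. Of the interaction, only the 20 largest differences are given, a shortening made after the values were seen. Zfp488, Zfp277, Zfp300 and the members of neighbour groups were also chosen after their values were seen. The members and lists were chosen with earlier results of these data known.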

Additional observations from a re-analysis of the deposited data

Results flagged for a closer look

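The change differed between the sexes at 81 members by the interaction test in limma (adjusted p under 0.05). The 20 largest differences, as the male minus the female log2 fold change, are given here. Those below 0 were Zfp575 at −4.76, Zfp600 at −2.8, Zfp65 at −2.56, Zfp951 at −2.36, Zfp607 at −2.24, Zfp935 at −2.21, Zfp534 at −2.19, Zfp316 at −2.04 and Zfp617 at −1.9. They went on with Zfp277 at −1.8, Zfp459 at −1.78, Zfp781 at −1.74, Zfp945 at −1.71, Zfp9 at −1.49, Zfp365 at −1.41, Zfp467 at −1.39 and Zfp113 at −1.31. Those above 0 were Zfp362 at 2.3, Zfp358 at 1.65 and Zfp395 at 1.33. Of the positions of Zfp781 0% were unique, so its placement and level are doubtful. Zfp575 in females and Zfp362 in both sexes passed the limit only through the group where they were higher, so their differences are in part set by the choice. Zfp65, Zfp277 and Zfp781 were among the members in which library B of Kdm5c flY was low, and Zfp65, Zfp316, Zfp365, Zfp607 and Zfp935 among those in which library A of Kdm5c ΔY was high. In Zfp575 library A of Kdm5c ΔY was more than 1 log2 below B and C. With 3 libraries per group, single libraries could not be tested as outliers.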

How the results depend on the processing

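No paired analysis was possible because the recovered libraries carry no replicate number. The counts of members that rose and fell in females stayed within 1.5 times under all 13 alternatives, and ran from 99 to 112 and from 43 to 49 with 1 library left out, while the female median ran from 0.148 to 0.182. With 1 library left out, 1 to 21 members rose and 0 to 48 fell in males, where the median ran from −0.102 to −0.00517, 57 to 116 differed in the interaction and 37 to 90 between controls. In males 5 rose with voom, 5 with a mean of at least 100 as the limit of the rule, and 16 fell when only genes with a mean of at least 10 were tested. Alternatives chosen after seeing the data left out both male libraries that stood apart, or kept members with at least 95% unique positions. Without the 2 libraries 46 members rose and 73 fell in males, 134 differed in the interaction and 118 between controls. Shares over all genes in that setting, and with 1 library left out, are given above for males only. With unique members alone, 43 differed between controls, out of 204 members rather than 255. Of the single genes named, 17 alternative values in females (573 kept their call), 74 in males (124 kept) and 58 in the interaction (656 kept) lost their call, and none of these alternatives reversed a direction. The causes were not tested. Genes above 10000 normalized counts could not be recovered, and Cbx5 was among them in Kdm5c fl/fl.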

Other observations

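The 37 members whose exons overlap an antisense gene were split evenly in females, with 10 higher and 10 lower in Kdm5c Δ/Δ. By number of fingers, 23 of 49 members with 1 to 5 fingers rose and 15 fell, and 36 of 80 with over 12 rose and 11 fell, and Spearman's rho between the number of fingers and the female log2 fold change was 0.12 over 251 members that are not independent. Of the 106 members with under 13 CG in the promoter 54 rose and 15 fell in females, and of the 145 with 13 or more 56 rose and 37 fell. Of the 25 members with a Zfp143-type site 12 rose and 6 fell (48% and 24%). Among all 255 members 44.3% rose and 20.8% fell in females, and among the 10914 genes at the same level 35.3% and 32.1%. The share that rose was 46.9% with 1 to 5 fingers and 45% with over 12, near that of all members. None of these splits was tested.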
